A study of Mus musculus with 6 samples.

Results

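A set of 7 genes of endothelial identity and endothelial junctions was followed in primary mouse Sertoli cells, the somatic cells that surround and nourish germ cells in the seminiferous tubule. They were Dll4, Tie1, Vwf, Mmrn2, Cdh5, Cldn5 and Esam, taken by symbol, and all 7 stood among the 3257 genes analysed from the authors' deposited table. They were chosen from their deposited fold changes between knockout and wild-type cells, so their differences between these groups are described below without a test. The 3 knockout libraries came from cells of UXT KO mice that were infected with a virus carrying CRE recombinase. The 3 wild-type libraries came from cells of wild-type mice infected with an empty plasmid. All cells had a C57BL/6 background and were enriched by differential plating. UXT (ART-27) resembles the prefoldins, small chaperone subunits. The labels give neither the age of the mice nor whether the libraries within a group were from separate animals, so spreads and p-values cover these libraries only and may be technical. Only knockout cells received CRE, so loss of UXT and exposure to the CRE virus cannot be told apart. Uxt was not among the genes analysed here, and its own level was not analysed here.

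Endothelial cells line blood and lymphatic vessels and are not part of the seminiferous epithelium. In the testis their capillaries run between the tubules, in the same interstitium as Leydig cells and macrophages. Endothelial cells are set apart by receptors for vascular growth factors, by Notch signalling between neighbouring cells, by storage of von Willebrand factor in Weibel-Palade bodies, and by adherens and tight junctions of their own. ETS and SOX transcription factors switch many of these genes on. In bulk RNA, fewer endothelial cells and less endothelial RNA per cell cannot be told apart.

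Promoter sequence is shown for Dll4, Tie1 and Cldn5, the 3 of the 7 genes with a window among the RefSeq promoters used here (GRCm38.p6). All 7 have a RefSeq gene entry, but the promoters of the others were not examined. For Dll4 and Cldn5 the 250 bases before the annotated start are printed 5′ to 3′, with the 4-letter core GGAA of ETS sites, or its reverse complement, in capitals. For Tie1 a stretch of 30 bases is printed, with the only match to the longer ETS form CAGGAA in capitals, read here as its reverse complement. The Tie1 window is counted from the RefSeq start at 118489849, which lies inside the gene as GENCODE M21 draws it, so most of this stretch falls within that annotated gene.
Dll4, chr2:119325534-119325783, plus strand: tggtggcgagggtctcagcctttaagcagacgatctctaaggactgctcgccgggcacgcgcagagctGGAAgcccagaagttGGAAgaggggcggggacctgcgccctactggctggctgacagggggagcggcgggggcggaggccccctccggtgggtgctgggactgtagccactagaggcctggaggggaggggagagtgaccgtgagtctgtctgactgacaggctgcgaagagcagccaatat
Cldn5, chr16:18776597-18776846, plus strand: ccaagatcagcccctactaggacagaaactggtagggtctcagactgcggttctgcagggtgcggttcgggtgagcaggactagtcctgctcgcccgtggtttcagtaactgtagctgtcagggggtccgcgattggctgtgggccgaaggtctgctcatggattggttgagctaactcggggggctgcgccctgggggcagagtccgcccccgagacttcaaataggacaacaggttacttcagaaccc
Tie1, chr4:118490041-118490070, minus strand: ggcttcctccctTTCCTGtctcccgtgctc

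The 3 promoters did not share the letters searched, on either strand. The core GGAA occurred 2 times in the Dll4 window, 7 times in the Tie1 window and 0 times in the Cldn5 window, and 93.4% of all 32851 promoter windows of this length held it. CAGGAA was found 1 time, in Tie1, and 25.7% of all windows held it. TGGGAA, a core read by the Notch effector RBPJ, was found 1 time, also in Tie1, and 21.6% of all windows held it. The ETS form CCGGAA was in none of the 3 windows and in 12% of all windows. The GATA factor motif AGATAA was in none of the 3 and in 9.99% of all, the SOX motif ACAAT in none of the 3 and in 27.7% of all, and the E-box CACGTG in none of the 3 and in 6.02% of all. Both ETS forms and the RBPJ core contain GGAA, so these counts overlap. The Dll4 window held 14 CpG dinucleotides, the Cldn5 window 12 and the Tie1 window 6, against a median of 6 over all windows. Missing letters in a window say nothing about binding of a factor.

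The libraries were compared on the authors' deposited log2 values, whose transformation is not given in the sources used here. Group differences in them were smaller than the log2 fold changes of the authors' deposited table, at a median of 0.24 of it in the 25% of genes with the lowest average expression and 0.65 of it in the highest 25%. The depth of the libraries is unknown. Each gene of the table had been selected by the authors on these same libraries, at a fold of at least 1.5. All had also passed the authors' own test at an adjusted p under 0.05, so passing in limma was nearly fixed beforehand. Limma called 99.6% of them changed, with 67.5% lower and 32.1% higher in the knockout. Against this background a count of called genes carries little information, and sizes of difference are compared instead. The limma adjusted p-values given below were adjusted over these selected genes only and are not independent evidence of a change. The table median was a log2 fold change of -0.88 in the authors' deposited table. Of 26 listed Sertoli markers, 18 were in the table, which reflects a difference between the groups and not presence. Trf, which encodes transferrin, stood at 12.42 ± 0.15 in knockout cells and 14.18 ± 0.11 in wild-type cells (log2 value, SD, n = 3 each). Cst9, at 2.86 ± 0.01 and 2.97 ± 0.02, lay near the lowest library value of the table, 2.24.

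All 7 endothelial genes were lower in knockout cells in each of the 3 libraries than in any wild-type library, where 65.8% of the table's genes showed the same order. The 7 had a median log2 fold change of -4.93 in the authors' deposited table. By deposited fold, 6 of the 7 stood among the 24 genes of the table that were lower by over 20-fold, which is 0.737% of it. The 7 were chosen from these fold changes, so this standing is not independent of the choice. The 20-fold line also lies just below Esam, at 21.1-fold the last of the 24. Cdh5 stood far from the others, at rank 1777 from the largest fall. The order of fold was Dll4, Vwf, Tie1, Mmrn2, Cldn5, Esam and Cdh5.

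**Figure D1:**
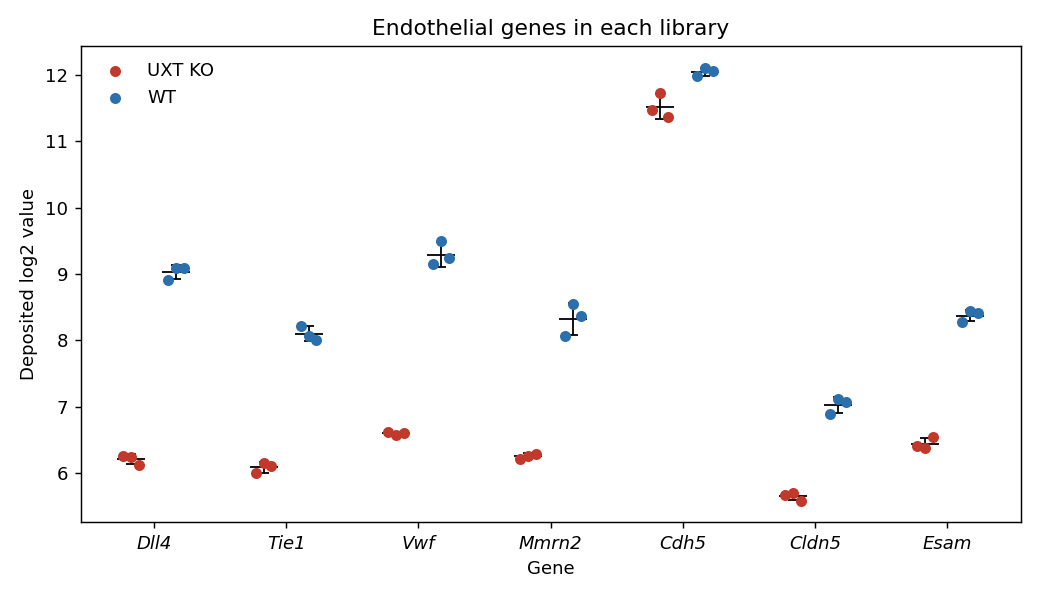
Deposited log2 value of each of the 7 endothelial genes in the 3 UXT KO libraries (red) and the 3 WT libraries (blue), with a bar for the mean and whiskers for the SD. In 6 genes the KO values lie between 5.59 and 6.62, well below the WT values between 6.89 and 9.50, whereas Cdh5 lies between 11.36 and 11.73 in KO and between 11.98 and 12.10 in WT libraries.

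Dll4 encodes a membrane-bound Notch ligand of arterial and sprouting capillary endothelium. It had log2 values of 6.26, 6.25 and 6.13 in the knockout libraries, against 8.92, 9.09 and 9.09 in the wild-type libraries. The groups were 2.65 apart at their nearest values, a wider gap than in the other members. Its difference was -2.82 ± 0.10 on the log2 scale of the library values (SE), and the authors' deposited table gave a fall of 124-fold, the largest of all genes analysed. Dll4 (gene ID 54485) lies on chromosome 2, 119325784 to 119335962 on the plus strand of GRCm38 in GENCODE M21. There it overlaps the antisense transcript Gm14207, and since the use of strand in counting is not given in the sources used here, reads from that transcript cannot be told apart.

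Tie1 encodes an orphan receptor tyrosine kinase that pairs with the angiopoietin receptor Tek. Its log2 values were 6.00, 6.16 and 6.11 in the knockout libraries, against 8.22, 8.07 and 8.0 in the wild-type libraries. The lowest wild-type value was 1.84 above the highest knockout value. The difference was -2.01 ± 0.10 (SE), and the fall in the authors' deposited table was 36.7-fold. Tie1 (gene ID 21846) lies on chromosome 4, 118471191 to 118490061, minus strand.

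Vwf encodes von Willebrand factor, which tethers platelets and is stored in Weibel-Palade bodies of endothelium. It had log2 values of 6.62, 6.59 and 6.60 in the knockout libraries, against 9.14, 9.50 and 9.24 in the wild-type libraries. The knockout libraries differed by 0.03 from lowest to highest, the narrowest spread of any member, and the wild-type libraries by 0.35. The difference was -2.69 ± 0.11 (SE), and the fall in the authors' deposited table was 51.8-fold. On the log2 scale the library difference was 0.47 of the deposited fold change, so the narrow knockout spread may not show agreement of the reads. Vwf (gene ID 22371) covers chromosome 6, 125546774 to 125686679, plus strand.

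Mmrn2 encodes multimerin 2, a matrix glycoprotein laid down by endothelial cells that binds the surface proteins CD93 and CLEC14A. Its log2 values were 6.22, 6.27 and 6.30 in the knockout libraries, against 8.07, 8.55 and 8.37 in the wild-type libraries. The wild-type libraries spread more widely for Mmrn2 than for any other member (SD 0.24, n = 3), yet remained 1.77 above the highest knockout value. The difference was -2.07 ± 0.12 (SE), and the fall in the authors' deposited table was 30.5-fold. Mmrn2 (gene ID 105450) lies on chromosome 14, 34375465 to 34404287, plus strand.

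Of the 3 junction genes, Cldn5 and Esam resembled the secreted and signalling genes and Cdh5 did not. Cldn5 encodes claudin 5, the main claudin of endothelial tight junctions. It had log2 values of 5.68, 5.70 and 5.59 in the knockout libraries, against 6.89, 7.12 and 7.08 in the wild-type libraries. The groups were 1.19 apart at their nearest values, the difference was -1.37 ± 0.09 (SE), and the fall in the authors' deposited table was 26.5-fold. Cldn5 had the lowest average expression of the 7 and a library difference of 0.29 of the log2 fold change that the authors' deposited table gives, the smallest such share among them. Cldn5 (gene ID 12741) is a gene of 1 exon on chromosome 16, 18776847 to 18778262, plus strand.

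Esam encodes an adhesion molecule of the immunoglobulin superfamily found at endothelial tight junctions and on platelets. Its log2 values were 6.41, 6.39 and 6.54 in the knockout libraries, against 8.27, 8.44 and 8.42 in the wild-type libraries. The groups were 1.73 apart at their nearest values. The difference was -1.93 ± 0.10 (SE), and the fall in the authors' deposited table was 21.1-fold. Esam (gene ID 69524) lies on chromosome 9, 37528078 to 37538319, plus strand.

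Cdh5 encodes VE-cadherin, the transmembrane cadherin of endothelial adherens junctions. It had log2 values of 11.47, 11.73 and 11.36 in the knockout libraries, against 11.98, 12.10 and 12.05 in the wild-type libraries. The groups did not overlap, but only 0.25 separated knockout replicate 2 from wild-type replicate 1. The difference was -0.53 ± 0.10 (SE), and the authors' deposited table gave a fall of 1.73-fold, the smallest of the 7. When each library was centred on its median, the difference of Cdh5 became -0.23, and with quantile normalization -0.36. The other 6 ranged from -2.52 to -1.08 and from -2.41 to -0.97 under these scalings, which moved the median of all genes by 0.30 and 0.33 on the log2 scale. Cdh5 (gene ID 12562) lies on chromosome 8, 104101625 to 104144511, plus strand, where it overlaps the antisense gene Gm29682, whose reads cannot be told apart without strand.

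Levels were compared between the genes per kilobase of merged exons, as the log2 library value minus the log2 of the exon length. Cdh5 was the most abundant transcript in both groups, at 9.45 ± 0.19 in knockout and 9.97 ± 0.06 in wild-type cells (SD, n = 3 each). In wild-type cells Dll4 (7.09 ± 0.10) and Esam (6.86 ± 0.09) followed, then Cldn5 (6.53 ± 0.12) and Mmrn2 (6.34 ± 0.24), and last Tie1 (5.80 ± 0.11) and Vwf (5.29 ± 0.18). Cldn5 and Mmrn2 differed by less than the SD of Mmrn2. In knockout cells Cldn5 (5.15 ± 0.06) and Esam (4.93 ± 0.08) came after Cdh5, followed by Dll4 and Mmrn2, both at 4.27, then by Tie1 (3.79 ± 0.08) and Vwf (2.60 ± 0.02). The annotation used for counting is not given in the sources used here, so these lengths are those of GENCODE M21. Merging exons over 11 transcripts gave Vwf 16064 bases, the longest of the 7, and its last place may depend on that length. The library differences of the 6 genes besides Cdh5 were 0.29 to 0.47 of their log2 fold changes in the authors' deposited table, so levels in knockout cells depend on which of these values is used.

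**Figure D2:**
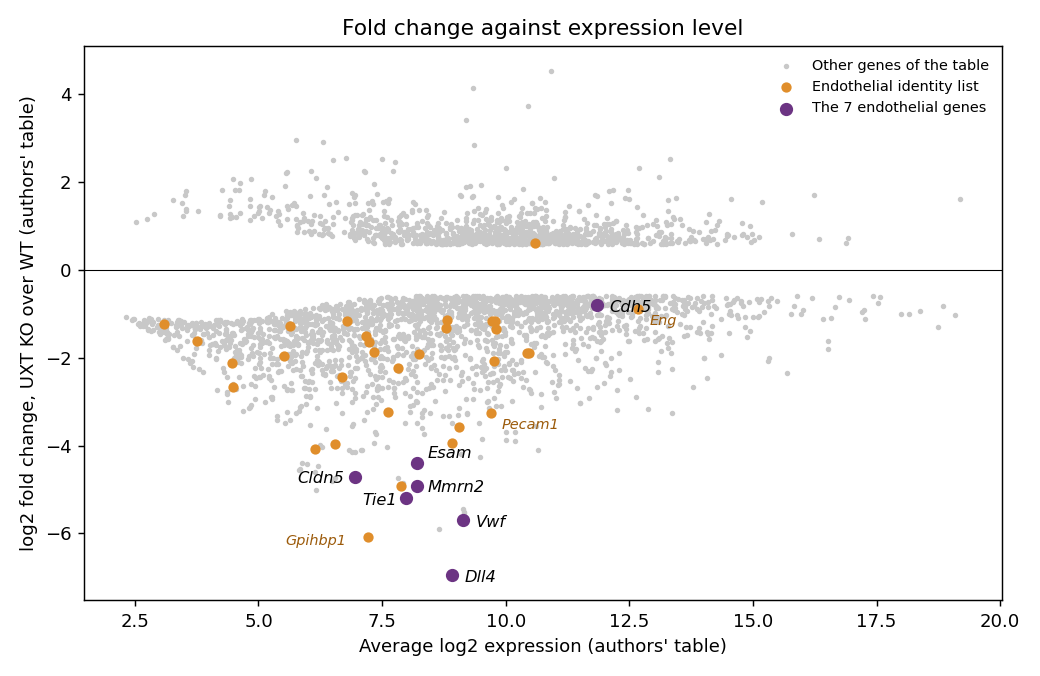
Log2 fold change, UXT KO over WT, against the average log2 expression, both from the authors' deposited table, for all 3257 genes (grey), the endothelial identity list (orange) and the 7 endothelial genes (purple). 6 of the 7 lie at the lower edge of the cloud, at average values from 6.96 to 9.14, below the table median of 9.20. Cdh5 lies near Eng at high expression and a small fall.

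A broader list of endothelial identity genes, without the 7, was mostly lower as well, with falls of 1.85-fold to 68.2-fold in the authors' deposited table. Of 49 genes, 31 were in the table, with a median log2 fold change of -1.90 in the authors' deposited table. Limma called 30 lower and 1 higher in knockout cells, where it called 67.5% of all genes of the table lower. The same share stands behind the list counts below. Listed genes outside the table, here Kdr, Plvap and Cd34 among others, may have missed the authors' cut-offs or gone undetected. The list counts therefore describe selected genes only. Gpihbp1, which carries lipoprotein lipase onto capillary endothelium, fell 68.2-fold and Nos3, the endothelial nitric oxide synthase gene, fell 30.4-fold in the authors' deposited table (limma adjusted p = 1.73e-06 and 1.76e-06). Icam2, an adhesion molecule of endothelium and leukocytes, fell 17-fold and the adhesion receptor gene Adgrl4 15.5-fold in the authors' deposited table (limma adjusted p = 5.77e-05 and 7.19e-06). In the authors' deposited table Procr, the gene of the endothelial protein C receptor, was the one that rose, by 1.53-fold. The smallest of these falls was that of Eng, which encodes the TGF-beta co-receptor endoglin. Eng and Cdh5 were the only 2 of these 38 endothelial genes with an average log2 expression above 11. Across the 37 lower genes of this group the size of the log2 fold change and the average expression had a Spearman correlation of -0.16, against -0.39 over all 2210 lower genes of the table. These genes share the same 6 libraries, and both values come from the authors' deposited table.

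Of 25 listed transcription factors of endothelial cells, 10 were in the table, and limma called these 10 lower, with a median log2 fold change of -1.80 in the authors' deposited table. With each library centred on its median, 6 were called lower. The other 15 were not analysed here. The ETS factor gene Erg had log2 values of 5.65, 5.68 and 5.80 in the knockout libraries, against 7.03, 7.14 and 6.91 in the wild-type libraries. It fell 17.7-fold in the authors' deposited table (limma adjusted p = 7.19e-06). The related SOX factor genes Sox7, Sox18 and Sox17, which act in vessel and arterial development, fell 17.6-fold, 16.5-fold and 5.34-fold per the authors' deposited table (limma adjusted p from 4.89e-06 to 1.71e-04).

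Around Dll4, the Notch list had 9 of 30 genes in the table, with 8 lower and 1 higher by limma and a median log2 fold change of -2.10 in the authors' deposited table. Mfng and Lfng, glycosyltransferases that tune Notch receptors toward Delta ligands, fell 11.1-fold and 4.65-fold per the authors' deposited table (limma adjusted p = 3.69e-05 and 6.44e-05). The Notch target genes Nrarp and Hey1 fell 6.48-fold and 5.05-fold per the authors' deposited table (limma adjusted p = 4.99e-05 and 4.17e-04). Hey1 had log2 values of 5.83, 6.12 and 6.13 in the knockout libraries, against 6.63, 7.11 and 7.12 in the wild-type libraries. Chosen after their values were seen, the receptor genes split: the endothelial receptor Notch4 fell 4.21-fold, whereas Notch2, the gene of the list that rose, was higher by 2.06-fold in the authors' deposited table.

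Around Tie1, the list of VEGF and angiopoietin-Tie genes had 12 of 19 in the table, with 11 lower and 1 higher by limma and a median log2 fold change of -1.98 in the authors' deposited table. After median centring 7 were called lower. The lists overlap, so their counts are not separate. Of the 12 genes here 7 were also on another list, as were 11 of the 31 endothelial identity genes. Esm1, a proteoglycan of endothelial tip cells, fell 46.5-fold per the authors' deposited table (limma adjusted p = 1.73e-06). It had log2 values of 6.71, 6.61 and 6.60 in the knockout libraries, against 9.49, 9.02 and 9.41 in the wild-type libraries. The TEK ligand genes Angpt2 and Angpt4 fell 11.1-fold and 8.52-fold per the authors' deposited table (limma adjusted p = 1.04e-05 and 1.11e-05). Ptprb, the phosphatase that acts on TEK, fell 5.39-fold in the authors' deposited table (limma adjusted p = 2.02e-04). The receptor gene Tek itself, at 5.40 in knockout and 5.72 in wild-type cells (mean log2 value), fell 2.41-fold in the authors' deposited table (limma adjusted p = 0.00388), and its sign turned with quantile normalization to 0.04 (limma adjusted p = 0.685). Vegfc, the ligand of the lymphatic receptor, rose 1.61-fold per the authors' deposited table (limma adjusted p = 0.0139).

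Around Vwf, 9 of 25 genes for Weibel-Palade bodies and for partners of von Willebrand factor were in the table. Limma called all 9 lower, with a median log2 fold change of -1.01 in the authors' deposited table, near that of the whole table. With each library centred on its median 4 of them were called lower. Unc13d, a regulator of granule release, fell 14.5-fold and Edn1, the endothelin precursor stored with von Willebrand factor, fell 4.99-fold in the authors' deposited table (limma adjusted p = 1.32e-06 and 4.13e-06). Angpt2, also stored in these bodies, and Tek are given above.

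Around Mmrn2, 4 of 8 genes of EMI-domain proteins and of the CD93 axis were in the table, and limma called all 4 lower, with a median log2 fold change of -1.37 in the authors' deposited table. Quantile normalization left 2 of these calls and median centring 1. The binding partner gene Cd93 fell 3.74-fold in the authors' deposited table (limma adjusted p = 1.16e-05), with log2 values of 9.64, 9.76 and 9.45 in the knockout libraries and 10.78, 10.84 and 10.80 in the wild-type libraries. The other partner, Clec14a, fell 3.07-fold in the authors' deposited table (limma adjusted p = 0.00216) at a low level, and its sign turned when libraries were centred on their median (0.11, limma adjusted p = 0.108). The related genes Emilin2 and Emilin1 fell 2.19-fold and 1.78-fold per the authors' deposited table (limma adjusted p = 0.0249 and 0.00512). Emilin2 had log2 values of 11.63, 11.70 and 12.45 in the knockout libraries, against 13.48, 13.37 and 11.96 in the wild-type libraries, so its groups overlapped. It no longer passed in 4 of the 6 fits that left out 1 library, those without knockout replicate 1 or 2 or wild-type replicate 1 or 2 (limma adjusted p from 0.0713 to 0.1).

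Around Cdh5, Cldn5 and Esam, 17 of 44 genes of junctions and their partners were in the table, with 16 lower and 1 higher by limma and a median log2 fold change of -1.64 in the authors' deposited table. Pecam1, the CD31 adhesion molecule of endothelial contacts, fell 9.59-fold in the authors' deposited table (limma adjusted p = 2.62e-06). It had log2 values of 8.25, 8.17 and 7.94 in the knockout libraries, against 9.95, 10.07 and 10.03 in the wild-type libraries. Cgn and Lsr, genes of tight junctions in epithelia, fell 11.7-fold and 5.73-fold per the authors' deposited table (limma adjusted p = 4.89e-06 and 2.43e-05). Of the catenin genes of the list, whose products bind cadherin tails, Jup, which encodes plakoglobin, fell 1.68-fold and Ctnnd2 fell 2.41-fold per the authors' deposited table, both chosen after their values were seen.

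**Figure D3:**
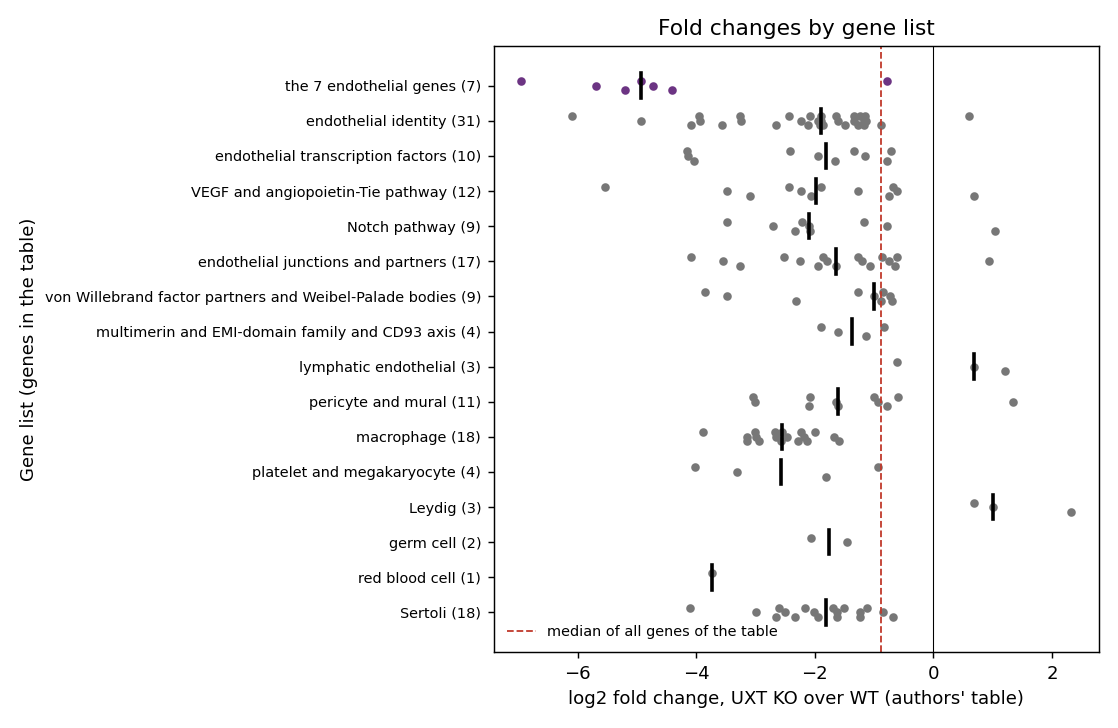
Log2 fold change, UXT KO over WT, in the authors' deposited table for the 7 endothelial genes (purple) and for each gene list (grey), one point per gene in the table, with a black bar at the median. The red dashed line is the median of all genes of the table at -0.88, and the median of the 7 endothelial genes lies at -4.93.

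Markers of other cell types differed between the groups in the same libraries. Of 20 macrophage markers 18 were in the table and limma called all 18 lower, with a median log2 fold change of -2.56 in the authors' deposited table. Their summed level, from library values turned back to a linear scale, was 12206 to 14408 in knockout and 33879 to 42905 in wild-type libraries, and Lyz2 made up 54.1% to 58% of it. The integrin gene Itgam fell 14.7-fold and the complement gene C1qb 8.81-fold in the authors' deposited table (limma adjusted p = 4.89e-06 and 4.13e-06). The Fc receptor gene Fcgr1 and the complement gene C1qc fell 8.86-fold and 8.08-fold per the authors' deposited table. Of 14 pericyte and mural markers 11 were in the table, with 10 lower and 1 higher by limma, and their summed level was 374759 to 429707 in knockout and 512311 to 633776 in wild-type libraries. Acta2 and Tagln together made up 92.8% to 93.7% of that sum. The gene that rose was Cspg4, which encodes the pericyte proteoglycan NG2, at 2.53-fold per the authors' deposited table (limma adjusted p = 1.51e-04), named after its value was seen. Mcam, which endothelial cells also express, fell 8.21-fold in the authors' deposited table (limma adjusted p = 4.89e-06). The potassium channel genes Kcnj8 and Abcc9 and the smooth muscle myosin gene Myh11 fell by 4.22-fold to 8.06-fold in the authors' deposited table, and 6 mural genes were called lower with quantile normalization. Abcc9 no longer passed there (limma adjusted p = 0.0648).

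Platelets carry Vwf and Esam transcripts too, and of 14 platelet and megakaryocyte markers 4 were in the table and all 4 were called lower by limma, with a summed level of 516 to 591 in knockout and 1185 to 1269 in wild-type libraries. Among them Ppbp and Pf4, chemokine genes of platelet granules, fell 16.3-fold and 9.98-fold per the authors' deposited table (limma adjusted p = 1.27e-05 and 4.13e-06). The integrin gene Itgb3 and the granule gene Nbeal2 fell 3.52-fold and 1.91-fold per the authors' deposited table. Nbeal2 turned sign with quantile normalization (0.10) and no longer passed without knockout replicate 1 or wild-type replicate 2 (limma adjusted p = 0.0523 and 0.0521). Of 9 Leydig cell markers 3 were in the table, and these 3 went the other way. Limma called all 3 higher, against 32.1% of all genes of the table. Star, Cyp11a1 and Hsd3b1, all genes of steroid synthesis, rose 2.01-fold, 1.61-fold and 5.0-fold per the authors' deposited table. Their summed level was 53509 to 67488 in knockout and 36365 to 41750 in wild-type libraries, with Star and Cyp11a1 together at 97.1% to 99.3% of it.

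The 18 Sertoli markers in the table were all called lower by limma, with a median log2 fold change of -1.82 in the authors' deposited table and a summed level of 59193 to 79773 in knockout and 139998 to 187023 in wild-type libraries. Clu made up 69% to 74.3% of that sum. With each library centred on its median 11 of them were called lower. Besides Trf, Shbg, Cst12 and Gata1 had the largest falls of this list, at 6.04-fold to 17.2-fold in the authors' deposited table. Gata1 no longer passed when libraries were centred on their median (-0.11, limma adjusted p = 0.205). Of 7 lymphatic genes 3 were in the table, with Prox1, a lymphatic transcription factor that other cells also express, and Vegfc called higher and the receptor gene Flt4 called lower by limma. Flt4 had 1.53-fold in the authors' deposited table and no longer passed without knockout replicate 1 or wild-type replicate 2 (limma adjusted p = 0.0525 and 0.0588), as did Vegfc (limma adjusted p = 0.0531 and 0.0565). Of 11 germ cell markers 2 were in the table, Kit and Sycp3, both called lower, at 4.19-fold and 2.73-fold per the authors' deposited table, and Sycp3 turned sign with both scalings (0.01 and 0.11). Of 7 red blood cell markers 1 was in the table, Alas2, which was called lower at 13.3-fold per the authors' deposited table. The endothelial identity list had a summed level of 12548 to 13646 in knockout and 22109 to 22800 in wild-type libraries, of which Eng made up 33.9% to 40.8%. The lowest library value of the whole table was 2.24 on the log2 scale, so these values do not show which markers had no reads. The part of these cell types in the differences of the 7 endothelial genes was not tested.

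The choice of the 7 among the genes of the table used group differences, not how libraries of the same group differ. The authors' test, which all genes of the table had passed, does depend on the spread within groups. Over all 21 pairs of the 7 genes, the correlation across the 6 libraries, after each group's mean was taken off, had a median of 0.37, and 71.4% were positive, against 0.03 and 51.6% over all pairs of table genes. Among the wild-type libraries, 6 of the 7 genes were lowest in replicate 1, the exception being Tie1, which was highest there. The share of all genes of the table that were lowest in that library was not computed. Tie1 deviated against most of the others, with correlations of -0.73 to 0.10 with them. The closest pair was Dll4 and Cldn5 (r = 0.97), then Vwf and Mmrn2 (r = 0.89). These correlations describe 6 libraries of which each group's mean was removed, and any shift of a whole library moves all pairs together. In knockout cells Cdh5 varied more than the other 6 genes (SD 0.19, n = 3), with replicate 2 highest.

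**Figure D4:**
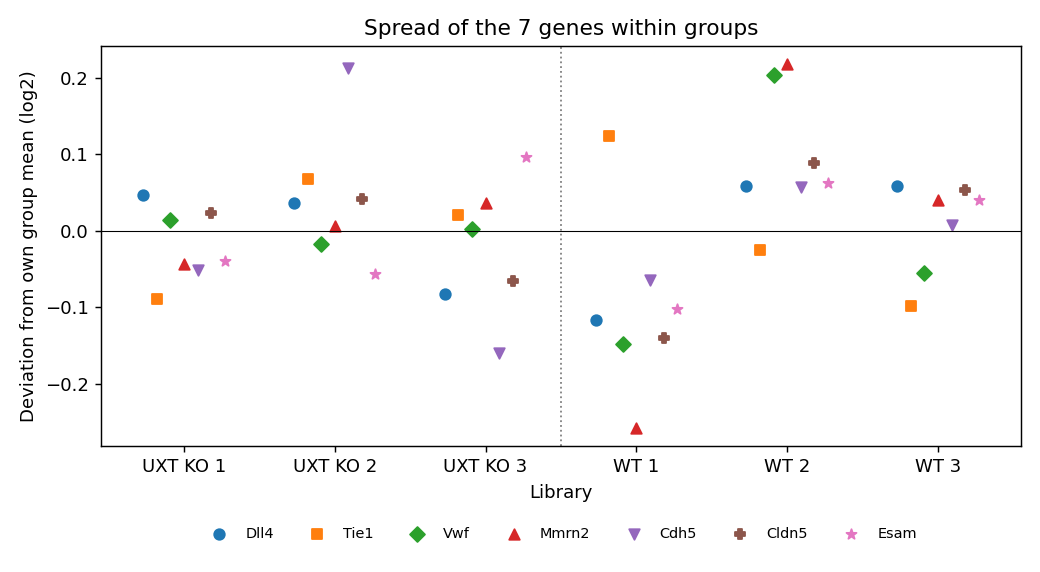
Deviation of each of the 7 endothelial genes from its own group mean on the log2 scale, for the 3 UXT KO libraries on the left and the 3 WT libraries on the right. In WT replicate 1 all genes but Tie1 lie below 0, and in the KO libraries Cdh5 deviates the most, at 0.21 in replicate 2.

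Among the other genes of the table, Nos3 had the profile most like the mean of the 7, with a root mean square difference of 0.05 on the log2 scale over the 6 libraries. Robo4, a guidance receptor of endothelium, at 0.06, and Pecam1, at 0.09, came next. Profiles here were deviations from each gene's own wild-type mean, so closeness does not mean a like level. This measure mostly follows the size of a gene's difference between the groups, and such differences chose the 7 genes. The neuropeptide gene Gal and the klotho-related gene Lctl followed, both at 0.10, against a median of 1.08 over all other genes. Nos3 had log2 values of 6.11, 6.07 and 6.17 in the knockout libraries, against 7.89, 8.13 and 8.03 in the wild-type libraries. When only the deviations within groups were used, the genes closest to the mean of the 7 were Unc93b1, Nme6, Myocd, Osbpl7 and Sv2a, with correlations of 0.98 to 1.0 over the 6 libraries, and none of these was on an endothelial list. Of these, Nme6 was higher in knockout cells, at 1.79-fold per the authors' deposited table.

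The 7 genes lie on 7 different chromosomes. Of the 14 protein-coding genes that flank them on either side in GENCODE M21, 3 were in the table. Chac1 beside Dll4 was lower by 1.81-fold, Sncg beside Mmrn2 was lower by 3.31-fold and Bean1 beside Cdh5 was higher by 1.98-fold per the authors' deposited table. The other 11 flanking genes were not analysed here.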

How the data were processed

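RNA of 3 UXT KO and 3 WT libraries was made into stranded mRNA libraries, per the labels' protocols. Per the submitters' processing notes, which give no versions, FastQC, STAR, DESeq2 and the mm10 build were used. The authors deposited a single table of selected genes. It gives a signed fold score, a log2 fold change, p-values and adjusted p-values, an average log2 expression and a log2 value per library, per the file headers. The transformation behind these log2 values, the read counter and the use of strand are not given in the sources used here. Of 3261 rows, 4 were left out because their 2 symbols stood on 2 rows each, leaving 3257 genes. Depth is unknown, so no counting interval was computed.

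The log2 values of all 6 libraries were fitted with limma 3.58.1 (R 4.3.3), using its mean-variance trend without covariates. The fit was tested on simulated data. Benjamini-Hochberg adjustment ran over 3257 genes, and genes were called at an adjusted p under 0.05. Because the authors had selected the table on these libraries, the calls are not independent evidence. The 7 genes and the 15 gene lists were chosen with earlier results of these data known. Named genes were the 7, the 4 genes of each list with the largest deposited fold, and the 5 most alike by each of 2 measures. Any other gene was chosen after its value was seen. Alternatives were 2 scalings, no trend, a filter on the lowest 25% of genes by mean value, a replicate block, an adjusted p under 0.01 and leaving out each library. The mm10 build equals GRCm38, the build of GENCODE M21 and of the RefSeq promoters. Features of proteins were not computed.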

Additional observations from a re-analysis of the deposited data

How the results depend on the processing

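The median difference of the 7 genes, -2.01, was -1.56 with quantile normalization, -1.71 with median centring and -2.05 to -1.96 when 1 library was left out. The genes were chosen for these differences, so their sign is no sign of stability. Genes called lower numbered 2200, but 1143 with quantile normalization (52.1% of calls lower) and 1024 with median centring (47.9% of calls lower), against 67.8% of calls lower as deposited. With quantile normalization 5 genes of von Willebrand factor partners, 2 of the multimerin list, 6 mural, 1 germ cell and 0 lymphatic genes were called lower. With median centring these were 6 endothelial transcription factors, 7 VEGF and angiopoietin genes, 4 von Willebrand factor partners, 1 multimerin list gene, 1 germ cell gene, 11 Sertoli genes and 0 lymphatic genes. Leaving out the lowest 25% of genes tests fewer genes and drops Cldn5. There 18 endothelial identity genes, 5 endothelial transcription factors, 4 Notch, 1 germ cell and 11 Sertoli genes were called lower. At an adjusted p under 0.01, 0 lymphatic genes were called lower, and leaving out 1 library gave 0 to 1. Signs turned for Tek (0.036), Nbeal2 (0.099), Sycp3 (0.0089), Myocd (0.010) and Sv2a (0.026) with quantile normalization, and for Clec14a (0.11), Sycp3 (0.11) and Myocd (0.060) with median centring, none past the threshold. The cause was not tested. Same-numbered knockout and wild-type libraries did not deviate together in all 3 pairs (correlations 0.18, -0.07 and -0.00), and 1 of 3 correlated best with its own number. With the replicate block 2207 genes were called lower and 1045 higher, against 1044 higher without it, and no list count changed. Depth is unknown, and library differences were smaller than the log2 fold changes of the authors' deposited table.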
